A study of Mus musculus with 8 samples.

Results

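Ppme1 encodes the methylesterase of protein phosphatase 2A (PP2A), and its transcript was followed here with those of the matching methyltransferase and of PP2A subunits in enterocytes, the absorptive cells of the small intestine. The array's annotation carries 8 of the 9 gene symbols sought (Ppme1, Lcmt1, Ppp2ca, Ppp2cb, Ppp2r1a, Ppp2r1b, Ppp2r2a and Igbp1), in 18 of the 18443 probe sets and 8 of the 10401 genes. The remaining symbol, Ppp2r4, is an older name of Ptpa in the RefSeq gene table, and the 3 Ptpa probe sets are described beside the others without being counted with them. The genes were chosen by their role in PP2A, with their differences between the genotypes on these same arrays already known, so those differences are given as a description with no test.

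The arrays compared IE-Cpr-null mice with wild-type (WT) littermates, all males of strain C57BL/6 aged 2.5 to 3.0 months. In IE-Cpr-null mice the reductase that feeds electrons to microsomal P450 enzymes (Cpr) is deleted from the intestinal epithelium. They are known to carry floxed Cpr alleles and a Cre transgene driven by the villin promoter, which acts in epithelial cells and not in stroma, muscle or immune cells, but the sample labels give neither. Each genotype had 4 arrays with RNA of 2 mice pooled on each, and 8 mice in all. Values are log2, and each probe set is set to 0 at its WT median, so they hold no expression level. They cannot show whether a gene was detected or which of 2 genes was the more abundant, and enterocyte identity cannot be checked by level.

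PP2A is an abundant serine/threonine phosphatase. A scaffold subunit holds a catalytic subunit, and an exchangeable regulatory subunit directs the complex to its substrates. The last residue of the catalytic subunit, a leucine, is methylated by Lcmt1 and demethylated by Ppme1, and this mark favours the binding of some regulatory subunits, above all those of the B55 family. Ppme1 also binds and holds an inactive form of the enzyme, which Ptpa helps to activate, while Igbp1 shields catalytic subunits not yet assembled.

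The arrays differed in transcripts of other cells. On the means of fixed marker lists, 12 hepatocyte genes stood at 5.54 and 3.36 on IE-Cpr-null 2 and 3, against -0.27 to 0.23 on the other 6 arrays. The 12 genes of smooth muscle and stroma stood at 4.73 on IE-Cpr-null 1 and 2.01 on WT 2, against -0.62 to 0.37 on the others. The 12 pancreatic acinar genes were all lower in the IE-Cpr-null mean, their means running from -4.67 to -1.78 on IE-Cpr-null arrays, against -4.45 on WT 3 and -0.61 to 1.45 on the other WT arrays. The array means over the 14 enterocyte genes lay between -0.11 and -0.00074 in IE-Cpr-null and between -0.090 and 0.024 in WT. Of these genes 6 had a higher and 8 a lower mean in IE-Cpr-null, and single genes varied more than the list means. The glucose transporter gene Slc2a2 read -0.32, -0.35, -0.35 and -0.15 in IE-Cpr-null, all below its WT values of -0.11 to 0.062. Slc15a1 went the other way, at 0.039, 0.14, 0.018 and 0.12 in IE-Cpr-null, against -0.017, -0.13, 0.039 and 0.017 in WT. Apob read -0.76 on WT 1. In such bulk RNA, fewer cells of a type and less RNA per cell cannot be told apart.

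Ppme1 read lower in IE-Cpr-null than in WT. Its only probe set, 1423810_at, read -0.56, -0.80, -0.87 and -0.60 on the 4 IE-Cpr-null arrays, against -0.093, 0.14, -0.049 and 0.049 on the 4 WT arrays. All 4 IE-Cpr-null pools lay below all 4 WT pools, and the gap between the groups was wider than the range within either. The means were -0.71 ± 0.15 in IE-Cpr-null and 0.011 ± 0.10 in WT (SD, n = 4 pools each), a difference of -0.72 (SE 0.0863), which puts the signal at 60.7% of WT. Among all probe sets 170 had a difference further below 0, and 353 (1.91%) one at least as large in either direction, Ppme1 included. It was the only one of the 18 probe sets whose groups did not overlap with IE-Cpr-null lower, and none lay wholly higher. Over all 18443 probe sets the shares were 2.47% lower and 1.64% higher. Since Ppme1 was chosen with this contrast in view, nothing is read from that count.

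Ppme1 was set beside the transcripts of other cells array by array. The acinar means were -1.78, -4.62, -4.67 and -4.60 on IE-Cpr-null 1 to 4, where Ppme1 read -0.56, -0.80, -0.87 and -0.60. Both measures thus ranked the IE-Cpr-null arrays in the same order. On WT 1 to 4 the acinar means were -0.61, 1.45, -4.45 and 0.58, where Ppme1 read -0.093, 0.14, -0.049 and 0.049. WT 2 was the highest WT array in both, while WT 3 was the lowest in acinar mean and WT 1 in Ppme1. Without the hepatocyte-rich IE-Cpr-null 2 and 3 the difference was -0.59, and without the muscle-rich IE-Cpr-null 1 and WT 2 it was -0.73. Within IE-Cpr-null the pair of hepatocyte-rich arrays had the lowest Ppme1 values. The part of cell content in the Ppme1 values was not tested. With quantile normalization of the arrays the Ppme1 difference was -0.59.

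**Figure D1:**
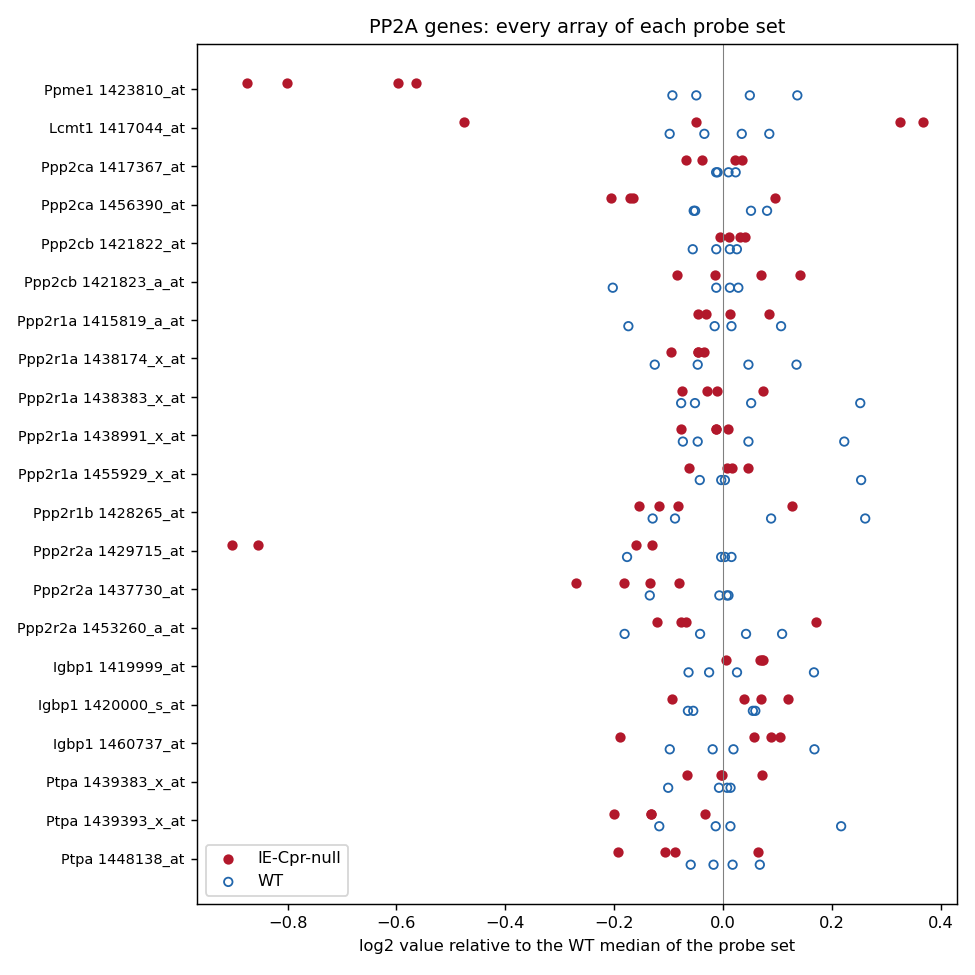
Log2 values relative to the WT median (x axis) for each probe set of Ppme1, Lcmt1, PP2A subunits, Igbp1 and Ptpa (y axis), with 1 point per array, IE-Cpr-null filled and WT open. Ppme1 sits between -0.87 and -0.56 in IE-Cpr-null and between -0.093 and 0.14 in WT, while the points of the 20 other probe sets overlap between the genotypes.

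The start of Ppme1 is shown because it lies next to that of C2cd3, the adjacent gene, whose mean was also lower in IE-Cpr-null (its values are given with the other neighbours). Both genes have 1 promoter window in the RefSeq table of build GRCm38.p6. Ppme1 is read from the minus strand and C2cd3 from the plus strand, so that they point away from each other, with 337 bases between their starts and 164 bases shared by their windows. The Ppme1 window, chr7:100371847-100372146 on the minus strand, runs from 250 bases before the start to 50 after it. Capitals mark the motifs found, the GC box GGGCGG and the ETS core CCGGAAG, which is on the other strand and reads CTTCCGG here.
Ppme1 window: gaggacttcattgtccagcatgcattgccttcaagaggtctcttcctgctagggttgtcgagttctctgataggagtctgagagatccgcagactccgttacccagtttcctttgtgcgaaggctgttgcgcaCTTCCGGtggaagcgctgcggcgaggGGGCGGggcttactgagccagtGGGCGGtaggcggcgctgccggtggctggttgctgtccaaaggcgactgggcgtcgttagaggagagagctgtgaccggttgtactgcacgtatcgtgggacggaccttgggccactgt

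Of 4 motifs searched on both strands, the GC box occurred 2 times, at positions -91 and -69 from the start, and the ETS core 1 time, at -117. None of these matches overlapped another. GGGCGG is present in 35.7% and CCGGAAG in 8.86% of the 32851 promoter windows of the table. CCAAT (37.4% of windows) and TATAAA (13.6%) were not among the letters of this window. It holds 21 CpG dinucleotides, against a median of 7 over all windows, of which 75.2% hold fewer than this one. These are features of the sequence, and no measurement here bears on what binds it.

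Lcmt1, the methyltransferase that acts against Ppme1, had overlapping groups and the widest IE-Cpr-null scatter after 1 Ppp2r2a probe set. Its probe set 1417044_at read -0.48, 0.33, 0.37 and -0.050 in IE-Cpr-null, against 0.085, 0.034, -0.098 and -0.034 in WT. The IE-Cpr-null arrays lay on both sides of the narrow WT range. The means were 0.042 ± 0.39 in IE-Cpr-null and -0.0033 ± 0.080 in WT (SD, n = 4 each), a difference of 0.045 (SE 0.181). The pair of high values were those of the hepatocyte-rich arrays and the low one that of the muscle-rich array. The sign of the Lcmt1 difference depended on the arrays kept. It was -0.26 without the hepatocyte-rich arrays, 0.23 without the muscle-rich arrays and 0.22 without IE-Cpr-null 1 alone.

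Lcmt1 and Ppme1 were also set against each other within each array, as the log2 value of Lcmt1 minus that of Ppme1. This was 0.089, 1.13, 1.24 and 0.55 in IE-Cpr-null, against 0.18, -0.10, -0.049 and -0.084 in WT. It was above WT on 3 of the 4 IE-Cpr-null arrays, and on IE-Cpr-null 1 it lay inside the WT range because Lcmt1 was itself low there. Both genes are measured on transcripts only, and no value here gives the methylation of the catalytic subunit.

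**Figure D2:**
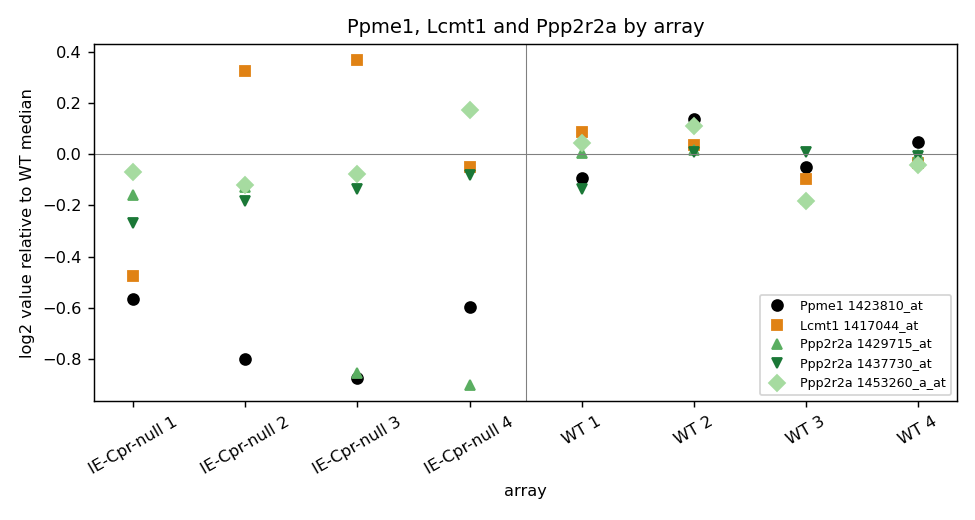
Log2 values relative to the WT median (y axis) of Ppme1, Lcmt1 and the 3 Ppp2r2a probe sets on each array (x axis, IE-Cpr-null left of WT). Ppme1 is low on all 4 IE-Cpr-null arrays, Lcmt1 scatters from -0.48 to 0.37 there, and 1 of the 3 Ppp2r2a probe sets is low on IE-Cpr-null 3 and 4.

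The catalytic subunits, the alpha isoform Ppp2ca and the beta isoform Ppp2cb, differed little. Probe set 1417367_at of Ppp2ca read -0.069, 0.021, -0.039 and 0.034 in IE-Cpr-null, against 0.010, 0.023, -0.013 and -0.010 in WT, a difference of -0.016 (SE 0.0362). Its other probe set, 1456390_at, read 0.096, -0.17, -0.16 and -0.21 in IE-Cpr-null, against -0.051, 0.081, 0.051 and -0.054 in WT, a difference of -0.12 (SE 0.075). In that probe set 3 IE-Cpr-null arrays lay below WT and the muscle-rich IE-Cpr-null 1 lay above all of WT. Without IE-Cpr-null 1 its groups no longer overlapped and the difference was -0.19, so 1 array decided the overlap. Of all probe sets 5.14% lay wholly lower in IE-Cpr-null on those 7 arrays.

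Ppp2cb was level in both of its probe sets. In 1421823_a_at it read -0.014, -0.085, 0.070 and 0.14 in IE-Cpr-null, against -0.20, 0.012, 0.028 and -0.012 in WT, a difference of 0.072 (SE 0.0708). In 1421822_at it read 0.040, 0.031, -0.0049 and 0.011 in IE-Cpr-null, against 0.025, 0.012, -0.056 and -0.012 in WT, a difference of 0.027 (SE 0.0333). Probe set 1421822_at stayed within 0.0303 of the median of every array, as 1 of the 2456 probe sets (13.3% of all) that stayed within 0.05.

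The scaffold subunits also overlapped between genotypes. Ppp2r1a, the alpha scaffold, has 5 probe sets, 4 of them marked _x_at, whose probes may also bind other transcripts. Their differences ran from -0.060 to 0.022, and their array means were 0.0074, 0.0063, -0.047 and -0.033 in IE-Cpr-null, against -0.099, -0.027, 0.19 and 0.027 in WT. WT 3, the WT array low in acinar transcripts, was the highest array in every one of the 5. Ppp2r1b, the beta scaffold, read -0.082, -0.12, 0.13 and -0.15 in IE-Cpr-null, against 0.088, -0.088, 0.26 and -0.13 in WT, a difference of -0.090 (SE 0.101).

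Ppp2r2a, a B55 regulatory subunit of the family whose binding the methyl mark favours, gave different answers in its 3 probe sets. In 1429715_at it read -0.16, -0.13, -0.85 and -0.90 in IE-Cpr-null, against 0.0035, 0.015, -0.18 and -0.0035 in WT. The 2 low IE-Cpr-null arrays stood about as low as Ppme1, and the other 2 were inside the range that WT 3 set. The means were -0.51 ± 0.42 in IE-Cpr-null and -0.040 ± 0.091 in WT (SD, n = 4 each), a difference of -0.47 (SE 0.195).

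The other Ppp2r2a probe sets did not repeat that split. In 1437730_at the gene read -0.27, -0.18, -0.13 and -0.081 in IE-Cpr-null, against -0.13, 0.0099, 0.0068 and -0.0068 in WT, a difference of -0.14 (SE 0.0549). In 1453260_a_at it read -0.068, -0.12, -0.078 and 0.17 in IE-Cpr-null, against 0.042, 0.11, -0.18 and -0.042 in WT, a difference of -0.0057 (SE 0.0857). IE-Cpr-null 4 was thus the lowest array of the first probe set and the highest IE-Cpr-null array of both others. Averaged over the 3, the gene read -0.17, -0.14, -0.36 and -0.27 in IE-Cpr-null, against -0.030, 0.045, -0.12 and -0.017 in WT, and these means did not overlap (difference -0.20), as was the case with IE-Cpr-null lower for 3.00% of all gene means.

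Ptpa, the activator, and Igbp1, the binding partner of free catalytic subunits, differed by small amounts. Ptpa had differences of 0.021 (SE 0.0444), -0.15 (SE 0.0748) and -0.083 (SE 0.0603) in its 3 probe sets. The most different, 1439393_x_at, read -0.13, -0.034, -0.20 and -0.13 in IE-Cpr-null, against -0.12, 0.014, 0.22 and -0.014 in WT. Its IE-Cpr-null range lay mostly below the WT values, with WT 1 among them. The 3 Igbp1 probe sets had differences from -0.0028 to 0.035, with IE-Cpr-null values from -0.19 to 0.12 and WT values from -0.098 to 0.17.

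Without Ppme1, 17 probe sets of 7 genes remained, 6 with a higher and 11 with a lower mean in IE-Cpr-null. Their median difference was -0.016, where the median over all 18443 probe sets was 0.016. In 16 of the 17 the difference was smaller than 0.15 in either direction, as it was in 14221 of all probe sets. The exception was the Ppp2r2a probe set 1429715_at.

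Genes linked to PP2A in 4 further lists are not among the members, and they were tested with limma over all probe sets. None (0) of their 96 probe sets, from 46 of the 59 genes listed, passed a Benjamini-Hochberg adjusted p of 0.05, where 0.0217% of all probe sets did (4 of 18443). At an unadjusted p under 0.05 in limma, 3 were higher and 11 lower, with Ppp5c and Sike1 each counted more than once. In either direction together, 1364 of all 18443 probe sets passed that bar. That total was not split by direction. Of the 96, 2 lay wholly higher and 7 wholly lower in IE-Cpr-null, where 1.64% and 2.47% of all probe sets did. The lists were chosen with earlier results of these data known, and several probe sets share a gene, so nothing is read from these counts. The median difference was 0.015 in the lists together.

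Of the other regulatory subunits of PP2A, 16 of 21 probe sets had a higher mean in IE-Cpr-null, with a median difference of 0.040, where 10609 of all 18443 probe sets were higher. Ppp2r5c, the gamma subunit of the B56 family, had the largest difference. Its probe set 1425725_s_at read 0.056, 0.68, 0.39 and 0.41 in IE-Cpr-null, against 0.048, 0.018, -0.19 and -0.018 in WT, a difference of 0.42 (SE 0.126) that missed the threshold (limma adjusted p = 0.464). IE-Cpr-null 1 was barely above WT 1. The 6 probe sets of Ppp2r5c ran from 0.017 to 0.42. Ppp2r5a, the alpha subunit of that family, read 0.10, 0.17, 0.076 and 0.054 in IE-Cpr-null, against WT values of -0.077 to 0.029, a difference of 0.11 (SE 0.0414) that also missed it (limma adjusted p = 0.572).

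Among inhibitors, chaperones and members of STRIPAK, the complex of striatins with PP2A, 15 of 29 probe sets were higher and 14 lower, with a median of 0.0081. Ensa, whose phosphorylated protein inhibits PP2A with B55 at mitosis, read -0.37, -0.50, -0.092 and -0.46 in IE-Cpr-null in probe set 1423330_at, against -0.071, 0.011, 0.021 and -0.011 in WT. The groups did not overlap, with a difference of -0.34 (SE 0.0878, limma adjusted p = 0.363). A second Ensa probe set, 1428620_at, differed by 0.092 (SE 0.0766), so the 2 disagreed in direction. Sike1, a STRIPAK member, differed by -0.15 in 1422594_at (SE 0.0541, limma adjusted p = 0.558), and its 4 probe sets ran from -0.24 to 0.037. The lowest, 1422595_s_at, was the 1 of the 4 whose groups did not overlap.

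Catalytic and regulatory subunits of related phosphatases (PP1, calcineurin, PP4, PP5 and PP6) had a median difference of -1.69e-05 over 33 probe sets, 16 higher and 17 lower. Ppp5c, the PP5 phosphatase, was the most even of these genes: its 3 probe sets were all lower on every IE-Cpr-null array than on any WT array. They were the only 3 of the 33 to do so, where 2.47% of all probe sets did. All 3 carry the same source sequence in the array's annotation, so they are not independent readings. In 1424116_x_at it read -0.10, -0.24, -0.13 and -0.21 in IE-Cpr-null, against 0.00047, -0.071, -0.00047 and 0.041 in WT, a difference of -0.16 (SE 0.0453, limma adjusted p = 0.409). Ppp1cc, a PP1 catalytic subunit, differed by -0.18 (SE 0.0701, limma adjusted p = 0.617). The largest difference of the list, 0.65 in the PP6 subunit gene Ppp6r3 (SE 0.673), rested on 1 array, WT 1 at -2.88, and was -0.088 without it.

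Lcmt1 uses S-adenosylmethionine as its methyl donor, and genes of that supply and of the removal of its product were the last list. The median over its 13 probe sets was -0.014, with 5 above 0 and 8 below. Ahcyl1, which is related to S-adenosylhomocysteine hydrolase, read -0.25, -0.29, -0.40 and -0.22 in IE-Cpr-null in 1426830_a_at, against -0.030, 0.19, -0.081 and 0.030 in WT. The groups did not overlap, with a difference of -0.32 (SE 0.0692, limma adjusted p = 0.318). Ahcy, the hydrolase itself, differed by -0.23 (SE 0.0782, limma adjusted p = 0.538). Bhmt, which remethylates homocysteine in liver, read 0.068, 5.87, 4.71 and 0.30 in IE-Cpr-null, against 0.019, 0.33, -0.019 and -0.16 in WT. Its high values were those of the hepatocyte-rich arrays, and without them its difference was 0.14, against 2.69 with all arrays (SE 1.33, limma adjusted p = 0.744).

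**Figure D3:**
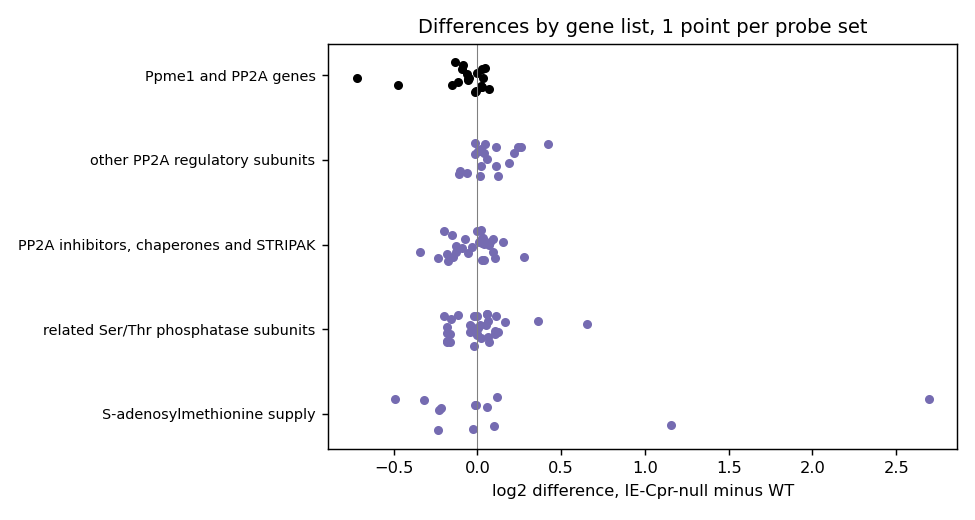
Log2 difference, IE-Cpr-null minus WT (x axis), of each probe set of Ppme1 and the PP2A genes (black, Ptpa included) and of the 4 linked lists (purple), with 1 point per probe set spread vertically for legibility. Ppme1 at -0.72 is the lowest of the points shown, and the point furthest to the right is Bhmt at 2.69.

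The genes around Ppme1 on chromosome 7 were compared next, taking the 6 nearest measured genes on each side in the RefSeq order. Of their 16 probe sets, 8 were higher and 8 lower in IE-Cpr-null, with a median difference of 0.0027, and none (0) passed in limma (2 at an unadjusted p under 0.05). C2cd3, a centriole gene and the next gene on one side, had a probe set, 1454977_at, at -0.26, -0.43, -0.45 and -0.69 in IE-Cpr-null, against -0.27, 0.36, 0.064 and -0.064 in WT. Only WT 1 overlapped the IE-Cpr-null range, and the difference of -0.48 (SE 0.145) missed the threshold (limma adjusted p = 0.471). P2ry2, a nucleotide receptor gene, was the other, at 0.22, 0.33, 0.63 and 0.69 in IE-Cpr-null, against -0.084, 0.084, 0.11 and -0.18 in WT. It was higher on every IE-Cpr-null array, by 0.49 (SE 0.122, limma adjusted p = 0.345). The remaining neighbours lay between -0.18 and 0.10, apart from Kcne3 at -0.88, whose IE-Cpr-null arrays ranged from -3.30 to 1.91.

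**Figure D4:**
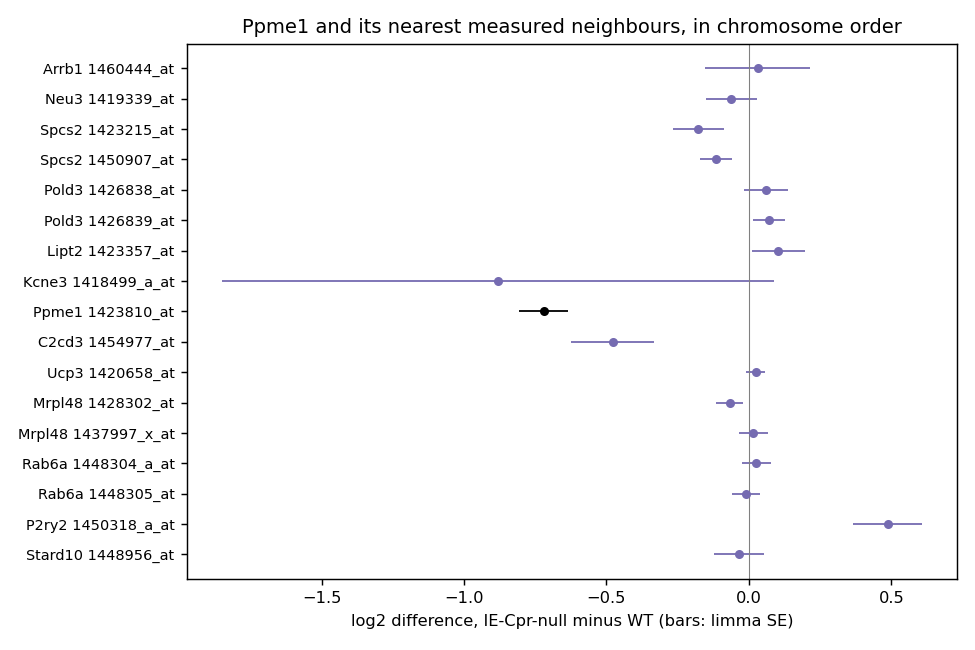
Log2 difference, IE-Cpr-null minus WT (x axis, bars are limma SE), of Ppme1 (black) and the probe sets of its 12 nearest measured neighbours (purple), in chromosome order down the page. C2cd3, directly below Ppme1, lies at -0.48, and most others lie close to 0.

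Genes whose pattern was most like that of Ppme1 were sought among 3067 named probe sets with a difference at least 0.25 times as large. Likeness was Pearson's r over the 8 arrays, which fall into the 2 genotypes, so any gene that separates them scores high. The highest were Emsy (r = 0.96, difference -0.27), Idh1, the cytosolic isocitrate dehydrogenase (0.96, difference -0.33), Ahcyl1 (0.96, difference -0.32), the sestrin gene Sesn1 (0.95, difference -0.35) and Grhpr, the glyoxylate reductase (0.95, difference -0.44). All 5 were lower on every IE-Cpr-null array than on any WT array, and each by less than Ppme1. The lowest were the chemokine gene Cxcl11 (r = -0.98, difference 0.51), the endoplasmic reticulum gene Sdf2l1 (-0.98, difference 0.39) and the mitochondrial ribosomal gene Mrps15 (-0.98, difference 0.20). Within IE-Cpr-null Cxcl11 ranked the 4 arrays in the opposite order to Ppme1, at 0.30, 0.60, 0.72 and 0.40 on arrays 1 to 4.

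**Figure D5:**
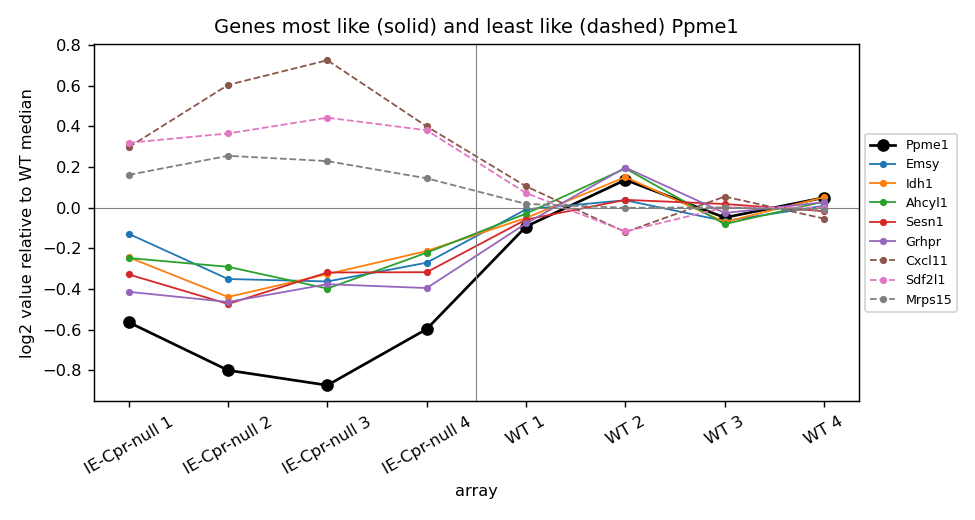
Log2 values relative to the WT median (y axis) by array (x axis, IE-Cpr-null left of WT) for Ppme1 (black), the 5 genes with the highest r (solid) and the 3 with the lowest (dashed); lines join values of 1 gene and imply no order of arrays. In IE-Cpr-null Ppme1 lies below the 5 genes most like it on each array.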

How the data were processed

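The authors deposited log2 values per probe set and array, made with GCRMA per the submitters' processing notes; version, settings and genome build are unstated in the sources used here. All 18443 probe sets had a WT median of 0 (within 1e-05), so each had been centred and no filter on dim probe sets was possible. The sample titles gave groups and replicates. No batch is given, and p-values measure the spread between pools of 2 mice.

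Probe sets were named from the platform annotation: 16689 had 1 symbol, 616 several and 1138 none, and only the first were named. All probe sets were fitted with limma 3.58.1 in R 4.3.3 (2 group means, two-sided, Benjamini-Hochberg over 18443, threshold 0.05), after a test on simulated data. Members and lists were chosen with earlier results of these data known. Of each linked list and of the neighbours, the 2 genes of smallest p and, for lists, the largest difference were named; second probe sets of named genes, Kcne3 and values beside them were added after the values were seen. Promoter sequence came from RefSeq, build GRCm38.p6. Alternatives were quantile normalization, median centring, replicate block, array weights, a robust prior, leaving out arrays, leaving out _x_at and _s_at probe sets, and gene means. The marker lists for T cells (9 genes measured, IE-Cpr-null array means -0.097 to 0.23, WT -0.074 to 0.10) and for B cells, macrophages and dendritic cells (8 genes, IE-Cpr-null -0.62 to 0.41, WT -0.19 to 0.44) overlapped between genotypes. In the T cell list 8 genes had a higher and 1 a lower mean in IE-Cpr-null. Its means on IE-Cpr-null 2, 3 and 4 (0.19, 0.17 and 0.23) lay above every WT array, so the overlap rested on IE-Cpr-null 1 alone. In the other list 3 genes were higher and 5 lower.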

Additional observations from a re-analysis of the deposited data

Results flagged for a closer look

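Groups of 4 arrays were checked for 33 probe sets in each genotype, 66 groups in all. In 7 of them 1 array lay far from the other 3, its gap to the nearest being more than 0.829 of the group's range. About 1 in 20 groups of independent normal values would pass that bar. Several of these probe sets share a gene, and some were named for a small p or a large difference, so the 7 are not compared with that rate. Among the PP2A genes, Ppp2ca 1456390_at was 0.096 on IE-Cpr-null 1, with its 3 fellow arrays at -0.21 to -0.16. Igbp1 1460737_at was -0.19 on IE-Cpr-null 2 (others 0.057 to 0.10), and Igbp1 1419999_at was 0.0050 on IE-Cpr-null 3 (others 0.068 to 0.074). Ppp2r1a 1455929_x_at was 0.25 on WT 3 (others -0.043 to 0.0034), and Ppp2r2a 1429715_at was -0.18 on the same array (others -0.0035 to 0.015). Ppp2r2a 1437730_at was -0.13 on WT 1 (others -0.0068 to 0.0099). Among linked genes, Ppp6r3 1454030_at was -2.88 on WT 1, where the other WT arrays were -0.0088 to 0.26.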

How the results depend on the processing

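The Ppme1 difference ran from -0.77 to -0.59 over 17 alternatives, and from -0.66 to -0.77 without single arrays. Only quantile normalization and median centring could make its groups overlap, and neither did. The difference moved by just over 1 SD with quantile normalization (-0.590), which forces the centred arrays to 1 distribution. It moved by just under 1 SD without the hepatocyte-rich arrays (-0.592). Of 253 recomputed differences of the other PP2A probe sets, 1 moved by more than 1 SD, that of Lcmt1 without the hepatocyte-rich arrays (-0.26); it was 0.23 without the muscle-rich arrays. The number of member probe sets wholly lower in IE-Cpr-null was 1 to 2 with single arrays left out, the second being Ppp2ca 1456390_at without IE-Cpr-null 1, Ppp2r2a 1437730_at without WT 1 and Ppp2r2a 1429715_at without WT 3. It was also 2 without the muscle-rich arrays (Ppp2ca 1456390_at) and 2 with gene means (Ppp2r2a). Over all probe sets the share wholly lower was 3.01% to 5.17% with single arrays left out, 6.90% without the muscle-rich arrays and 3.00% of gene means, against 2.47% on all arrays. Igbp1 1420000_s_at lay wholly higher (0.096) without the hepatocyte-rich arrays, as did 4.74% of all probe sets. Of the Ptpa probe sets, not counted with the members, 1439393_x_at (-0.16) and 1448138_at (-0.15) lay wholly lower there, as did 7.53% of all. Both also lay wholly lower without IE-Cpr-null 2 (-0.18 and -0.13), as did 3.27% of all. Without WT 1, 1439393_x_at did so (-0.20), as did 3.96% of all.

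No linked probe set and no neighbour passed in 16 of 17 alternatives. With array weights 7 linked probe sets passed, from Ahcy, Ahcyl1, Ensa, Ppp2r5c and Ppp5c, and 3 of neighbours, from C2cd3, P2ry2 and Spcs2, where 741 of all probe sets passed. The limma adjusted p ranged from 0.0228 to 0.97 for Ensa, from 0.0281 to 0.97 for Ppp2r5c, from 0.0265 to 0.97 for Ppp5c, from 0.0368 to 0.97 for Ahcyl1, from 0.0374 to 0.974 for Ahcy, from 0.0326 to 0.97 for C2cd3 and from 0.0219 to 0.97 for P2ry2. The Ppp6r3 difference of 0.65 ran from -0.088 (without WT 1) to 0.96 (without WT 3) with single WT arrays left out, and was 1.29 with quantile normalization. All probe sets past the threshold numbered 1 with quantile normalization, 1 with the replicate block, and 1 to 16 with single arrays left out (1 without WT 1, 2 or 4, 16 without IE-Cpr-null 1 and 7 without IE-Cpr-null 2). Deviations of same-numbered arrays correlated at -0.058, -0.041, 0.26 and 0.13, and 2 of 4 IE-Cpr-null arrays correlated best with their own number. With so few arrays, and other-cell transcripts high on single arrays, this cannot show whether the numbers pair the samples. The replicate block left 0 linked probe sets and 0 neighbours past the threshold. Centring hides expression level, so how signal over background limits each probe set is unknown.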
